A study of Homo sapiens with 66 samples.

Results

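HIF-1α binding was compared between RCC4 cells and HKC8 cells at 1602 genomic sites, each called in both replicates of at least 1 of the lines. RCC4 is a clear cell renal carcinoma line that lacks functional VHL, the protein that marks HIF-α for degradation, and it was kept in normoxia. HKC8 is a renal proximal tubule line with working VHL, and the wild-type cells of the knockout experiment (HKC8_WT) were kept in 0.5% oxygen for 16 h. Each line was immunoprecipitated in 2 replicates with the same HIF-1α antibody, and the authors deposited 1 list of peaks per library. Overlapping peaks of the 4 lists were merged into sites. A site was common when all 4 libraries called it (399 sites, 24.9% of 1602), RCC4-only when both RCC4 libraries and neither HKC8_WT library did (379, 23.7%), and HKC8-only in the converse case (391, 24.4%). The rest had both replicates of a line and 1 replicate of the other: 120 with both RCC4 libraries (7.49%) and 313 with both HKC8_WT libraries (19.5%). The whole series holds 131425 peaks in 50 immunoprecipitated libraries. Each line is a single cell line, and line, VHL status, oxygen level and experiment changed together, so these cannot be told apart.

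HIF is a heterodimer of an oxygen-labile α subunit, HIF-1α or HIF-2α, and the stable HIF-1β subunit. It binds DNA at hypoxia response elements (HREs), whose core reads ACGTG or GCGTG. HIF-1α is known for driving glycolysis and other metabolic adaptation to low oxygen, and loss of VHL in clear cell renal carcinoma leaves both α subunits stable in normal oxygen.

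The DNA at leading sites of each class is shown because it carries the element that HIF reads. Sequences are GRCh37, written 5′ to 3′, with HRE cores on the printed strand in capitals; each is the stretch around a core near the centre of a site that ranked high in its line. Common sites included an intron of EGLN3, the HIF prolyl hydroxylase PHD3, and the start of GPI, the glycolytic isomerase, where 9 cores fell within 100 bases of the centre on both strands.
EGLN3 intron, common, chr14:34407677-34407737, plus strand: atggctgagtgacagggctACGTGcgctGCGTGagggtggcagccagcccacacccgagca
GPI promoter, common, chr19:34850216-34850276, plus strand: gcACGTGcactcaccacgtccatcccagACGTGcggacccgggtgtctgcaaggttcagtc
PFKFB4 intron, common, chr3:48594688-48594748, plus strand: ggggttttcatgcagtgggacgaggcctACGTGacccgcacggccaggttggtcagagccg
TMEM63B distal, RCC4-only, chr6:44043082-44043142, minus strand: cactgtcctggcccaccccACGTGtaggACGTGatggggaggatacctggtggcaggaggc
PRODH distal, RCC4-only, chr22:18990014-18990074, plus strand: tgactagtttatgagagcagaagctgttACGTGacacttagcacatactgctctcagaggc
AK4 promoter, RCC4-only, chr1:65613865-65613889, plus strand: gggaggtgtaGCGTGgcgctcagtc
RRP12 and PGAM1 promoter, RCC4-only, chr10:99185768-99185792, plus strand: ccGCGTGcttACGTGcgctccgtga
ITGA5 distal, HKC8-only, chr12:54826393-54826453, plus strand: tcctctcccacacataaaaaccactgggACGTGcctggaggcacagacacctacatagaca
PPM1H intron, HKC8-only, chr12:63276626-63276686, minus strand: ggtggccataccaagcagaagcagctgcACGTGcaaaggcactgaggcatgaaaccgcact
SLC45A1 distal, HKC8-only, chr1:8272283-8272343, minus strand: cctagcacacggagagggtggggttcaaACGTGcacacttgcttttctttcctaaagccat
The printed stretches at EGLN3, TMEM63B and RRP12 hold a pair of cores a few bases apart, while those at PRODH, AK4 and ITGA5 hold a lone core. The PFKFB4 site falls in an annotated intron but is also promoter-proximal, with its centre 0.342 kb upstream of the nearest transcription start.

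The RCC4 libraries were unlike each other, and that bears on every class. RCC4 replicate 1 listed 5680 peaks, of which 15.9% met a peak of replicate 2, and 39% had their centre within 1 kb of a protein-coding transcription start site (TSS). RCC4 replicate 2 listed 2120 peaks, of which 42.8% met replicate 1, with 16.2% within 1 kb of a TSS. The HKC8_WT libraries listed 1913 and 1535 peaks, and 58.3% and 72.9% of these met the other replicate. RCC4 replicate 1 therefore stood apart in number and in place. The share of the shorter list that met the longer was 57.8% on average within a line and 41% between lines (one-sided exact permutation test over the 3 ways to pair the libraries, p = 0.333, the smallest possible, adjusted p = 0.417). Among the 500 strongest peaks of each list, the share within 1 kb of a TSS was 51.2% and 36.8% in RCC4 and 21.8% and 21% in HKC8. The lists hold no read counts, so the depth of the libraries is unknown.

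Strength was read as a percentile, the place of a peak's score in its own list, with 100 the strongest. Common sites were strong in both lines, with medians of 93.6 and 84.7 in the RCC4 replicates and 82.4 and 77.6 in the HKC8 replicates. RCC4-only sites had medians of 86 and 71.9, and HKC8-only sites of 59.5 and 54.1. The scores come from the calls that defined the classes, so the strength of common sites is partly built in. A given rank has a higher percentile in a longer list, and the RCC4 lists were longer. The RCC4-only and HKC8-only medians are therefore not on the same scale. Common sites made up 75 and 74 of the 100 strongest peaks of the RCC4 libraries and 73 and 72 of those of the HKC8 libraries. Sites of 1 line filled 16 to 20 of these 100 places, so most of the strongest binding in either line was shared.

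The leading common sites, chosen by mean percentile over the 4 libraries, lay at genes of metabolism and of the hypoxic response. At KDM3A, a histone H3 lysine demethylase, the percentiles were 99.9 and 99.79 in RCC4 and 99.97 and 99.97 in HKC8. At GAPDH they were 99.9, 99.69, 99.5 and 99.32, and at EGLN3 99.53, 99.17, 99.92 and 99.9. All 4 libraries placed these sites in the upper 1% of their lists. PFKFB4, a regulator of glycolytic flux, GPI, C4orf3, ZNF292 and NDRG1, a stress-response gene with its site 73.6 kb from the nearest TSS, completed the leading 8. Each of the 8 was also called by 6 to 8 of the 8 HIF-1α libraries of HKC8 cells in the separate severity and duration experiment, and by both HIF-1α libraries of HKC8_HIF2aKO cells, single-clone knockout cells without HIF-2α.

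Within the common class the order of strength differed more between lines than between replicates. Over the 399 sites, Spearman's coefficient of the percentiles was 0.784 between the RCC4 replicates and 0.83 between the HKC8 replicates, against 0.41 to 0.446 for the 4 pairs across lines. These coefficients describe sites that share libraries and are given without a test. The difference between the lines' mean percentiles exceeded the larger gap between replicates at 142 of 399 sites (35.6%), and 121 of the 142 were higher in RCC4. Among the 140 common sites within 1 kb of a TSS, 120 (85.7%) stood higher in RCC4, by a median of 9.84 percentile points over the 140. Among the 259 more distant sites, 159 (61.4%) did, and the median was 3.63. The median shift toward RCC4 was thus greater at promoters. RCC4 replicate 1 had 39% of its peaks there and replicate 2 16.2%. The RCC4 lists held 5680 and 2120 peaks and the HKC8_WT lists 1913 and 1535. Because an equal rank has a higher percentile in a longer list, shifts toward RCC4 mix the order of sites with list length. These were not separated.

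**Figure D1:**
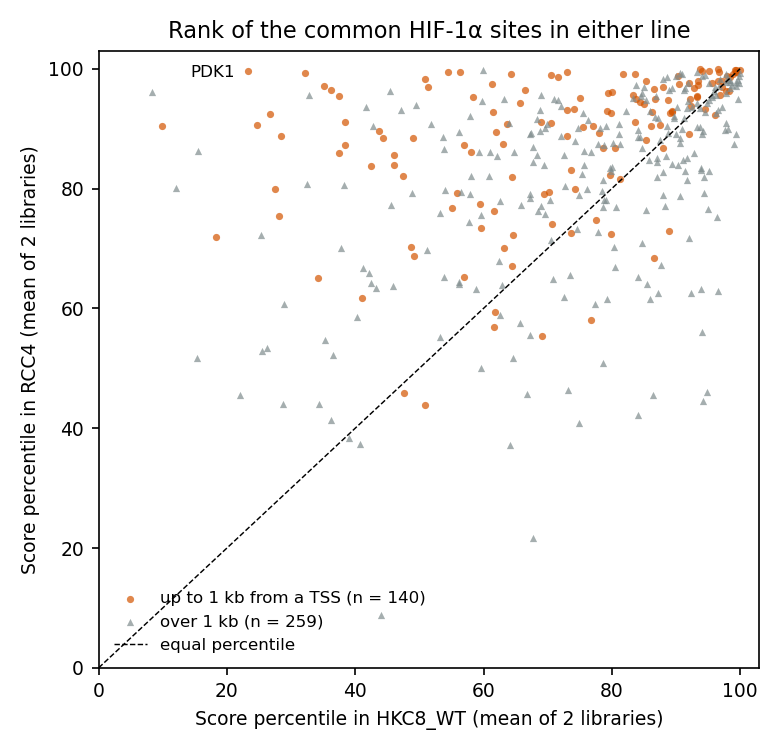
Percentile of each of the 399 common sites within its peak list, mean of the 2 RCC4 libraries against mean of the 2 HKC8_WT libraries (100 is the strongest peak), with promoter-proximal and distal sites marked apart. Of the 399 sites, 279 lie on the RCC4 side of the diagonal, and PDK1, the labelled point, has a mean of 99.7 in RCC4 and 23.3 in HKC8. An equal rank has a higher percentile in the longer RCC4 lists.

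The clearest shift at a known HIF target was at PDK1, the kinase that shuts off pyruvate dehydrogenase. Its promoter site stood at 99.9 and 99.46 in RCC4 but at 23.55 and 23.06 in HKC8_WT, a difference of 76.4 percentile points against a largest replicate gap of 0.487. In the other HKC8 experiment the same PDK1 site was called by 8 of 8 libraries, at percentiles of 98.1 to 99.6 with a median of 99.2. In the HKC8_HIF2aKO libraries it stood at 69.3 and 80.8. The HKC8 lists of different experiments thus placed this promoter far apart in their order. PPP1R3C, which targets a phosphatase to glycogen, had a like pattern, with 99.76 and 98.84 in RCC4, 19.81 and 44.53 in HKC8_WT, and a call in 8 of 8 libraries of the other experiment. LDHA, which converts pyruvate to lactate, stood at 99.71 and 99.03 in RCC4 and at 68.14 and 78.01 in HKC8_WT.

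The remaining large shifts stood differently against their replicate gaps. Toward RCC4, the site nearest ENSG00000284209, 715 kb from a TSS on chromosome 16, moved by 87.8 points, PLEKHA2 by 80.6 and SEMA6D by 70.8. The larger replicate gaps at these sites were 2.48, 7.65 and 8.04 points, well below the shifts. None of the 3 was called in any of the 8 severity and duration libraries. Toward HKC8 the greatest mean shifts were at FHIP2A (-49.8), PTGS1 (-48.8), SPTBN1 (-46.1) and SLC25A37 (-41.9). The RCC4 replicates differed by 67.7, 91.3, 26.1 and 51 points at these sites. For FHIP2A, PTGS1 and SLC25A37 the replicate gap was larger than the shift, which leaves SPTBN1, a spectrin of the membrane skeleton, as the site of these 4 whose shift was larger.

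RCC4-only sites were led by regions that ranked near the top of both RCC4 lists and had no HIF-1α peak in HKC8_WT. The site 51.5 kb from TMEM63B, an osmosensitive channel, stood at 99.9 and 99.74, and that at ZNF395 at 99.73 and 99.5. The promoter shared by RRP12, a ribosome export factor, and PGAM1, the glycolytic phosphoglycerate mutase, stood at 99.69 and 99.22. AK4, a mitochondrial adenylate kinase, stood at 99.55 and 98.75. QSOX1, a secreted sulfhydryl oxidase, PRODH, which begins proline breakdown, SLC22A16, a carnitine transporter, and the splicing kinase CLK3 followed, with the lower of their replicates at 97.1 to 98.6. All 8 were also called in both RCC4 HIF-1β libraries and both RCC4 HIF-2α libraries.

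Absence from the HKC8_WT lists was not always absence from HKC8 cells. The severity and duration experiment used the same antibody on wild-type HKC8 cells at 0.5% oxygen for 6, 16 and 48 h and at 3% for 6 h, with 2 libraries each. RRP12/PGAM1 was called by 8 of these 8 libraries, at percentiles of 99.2 to 100, with 99.96 and 99.95 in the libraries at 0.5% for 16 h, the same oxygen and time as HKC8_WT. AK4 was called by 8 of 8 at 86.2 to 98.9, ZNF395 by 8 of 8, TMEM63B by 7 and CLK3 by 6. These 5 leading RCC4-only sites were therefore HIF-1α peaks of HKC8 too. PRODH, QSOX1 and SLC22A16 were different: none of the 8 libraries and neither HKC8_HIF2aKO library called them, while 6, 4 and 6 of the 6 HepG2 libraries did.

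Over all 379 RCC4-only sites, 31 (8.18%, 95% Clopper-Pearson interval 5.62 to 11.4) were called by at least 4 of the 8 libraries, and 83 (21.9%) by at least 1 of the pair at 0.5% for 16 h. Of the 31, 24 (77.4%) lay within 1 kb of a TSS, 25 held an HRE core near their centre, and their median GC content was 76.1%. They included promoters of classic HIF targets: PFKL, BNIP3, EGLN1, P4HA2, PGM1, SLC2A1, ERO1A and SIAH2. BNIP3, a mitophagy receptor, was called by 8 of 8 libraries with a median percentile of 99, and the prolyl hydroxylase EGLN1 by 6 with a median of 96.7. A site in SLC16A3, the lactate exporter, 1.55 kb from the start, was called by 8 of 8 with a median of 99.3. By contrast, 261 RCC4-only sites (68.9%) were called by none of the 10 other HKC8 HIF-1α libraries, and only 18% of these 261 were promoter-proximal. By location, 64.9% of the promoter-proximal RCC4-only sites (n = 134) and 12.7% of the distal ones (n = 245) had a HIF-1α peak in at least 1 of the 10. For common sites these shares were 98.6% (n = 140) and 88% (n = 259). The lean to promoters was not particular to RCC4-only sites. Of 107 common sites called by at least 4 of the 8 libraries, 65 (60.75%) were promoter-proximal, with a median GC content of 63.7%. Intervals here cover counting error alone.

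HKC8-only sites were led by distal regions. KCNS1, a modulatory potassium channel subunit, had its site 12.7 kb away at 99.61 and 99.45, and ITGA5, the α chain of the fibronectin receptor, 13.4 kb away at 99.29 and 98.99. ADARB1, an RNA-editing deaminase, followed at 98.93 and 98.47. A pair of sites lay in introns of PPM1H, a protein phosphatase, 205 and 52.3 kb from the nearest start, with 98.3 and 98.66 for the more distant and 98.46 and 95.6 for the nearer. SLC45A1, a sugar transporter, INSIG1, a sterol-sensing regulator, and MN1, a transcriptional coactivator, had sites 106, 88.4 and 139 kb away. None of the 8 lay within 10 kb of a protein-coding TSS.

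All 8 leading HKC8-only sites were called in both HKC8_WT libraries of HIF-1β and of HIF-2α and in both HKC8_HIF2aKO HIF-1α libraries. In the severity and duration libraries KCNS1 was called by 7 of 8, the PPM1H sites by 5 and 6, ITGA5 by 4, and ADARB1 by none. In RCC4, no HIF-1β library called any of the 8, and a HIF-2α library called INSIG1 alone. HKC8-only sites as a class were called by at least 4 of the 8 severity and duration libraries in 6 of 391 cases (1.53%, interval 0.565 to 3.31) and by both HKC8_HIF2aKO libraries in 25.8%. For common sites the same shares were 107 of 399 (26.8%) and 311 of 399 (77.9%), and for RCC4-only sites the share in both HKC8_HIF2aKO libraries was 18 of 379 (4.75%).

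Place relative to genes separated the HKC8-only sites from the others. Of common sites 140 of 399 (35.1%, interval 30.4 to 40) lay within 1 kb of a protein-coding TSS, and of RCC4-only sites 134 of 379 (35.4%, 30.5 to 40.4). Of HKC8-only sites 15 of 391 did (3.84%, 2.16 to 6.25). The median distance was 8.08 kb for common, 8.35 kb for RCC4-only and 28 kb for HKC8-only sites, and 54.2% of HKC8-only sites were 10 to 100 kb from a TSS, against 32.1% and 30.9%. Introns held a like share of each class (40.1%, 41.4% and 42.5%). Untranslated exons held 10.5% of common, 12.4% of RCC4-only and 3.58% of HKC8-only sites.

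Part of this separation moved with RCC4 replicate 1, whose promoter peaks take a site out of the HKC8-only class. The 313 HKC8 sites that met a peak in only 1 RCC4 library were promoter-proximal in 23.3% of cases. Without RCC4 replicate 1 the promoter-proximal share was 12.7% of 693 HKC8-only sites and 9.82% of 1538 RCC4-only sites, so the order of these classes then turned round. The RCC4 sites were then the peaks of replicate 2 alone, with no call in both replicates required. With every list shortened to its 1529 strongest peaks the HKC8-only share was 6.36%. When the libraries themselves were compared, the promoter-proximal share was 27.6% ± 16.1 in RCC4 and 19.2% ± 1.23 in HKC8_WT (SD, n = 2 each), a difference within the spread of the RCC4 replicates (two-sided exact permutation test, p = 1, adjusted p = 1 over 10 tests, where 2 against 2 cannot go below 0.333).

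**Figure D2:**
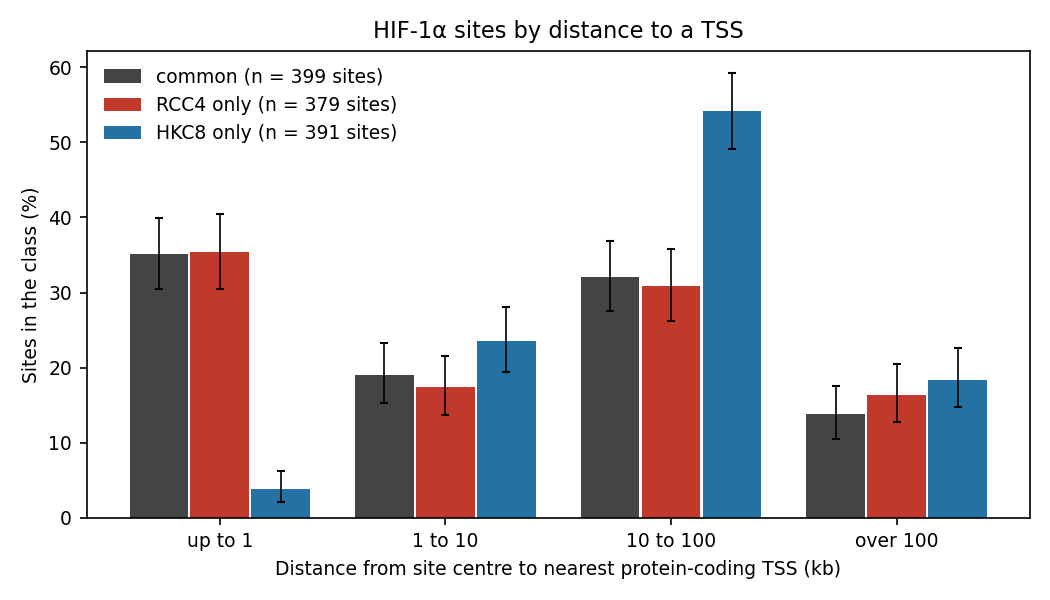
Distribution of the distance from site centre to the nearest protein-coding TSS for common, RCC4-only and HKC8-only sites, as the percent of each class in 4 distance ranges, with 95% Clopper-Pearson intervals as bars. The HKC8-only class has 3.84% of its sites within 1 kb, against 35.1% and 35.4% in the other classes.

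HRE cores were sought within 100 bases of each site's centre, on both strands, beside control windows of the same length 2 kb to either side. A core (ACGTG or GCGTG) was found in 72.9% of common, 72% of RCC4-only and 62.7% of HKC8-only sites, against 23.9%, 21.2% and 21.1% of their control windows. Every class was above its flanks, but without RCC4 replicate 1 the RCC4-only share was 30.04%, and without replicate 2 it was 51.4%. Those shares are over 1538 and 4546 peaks called in the other RCC4 library, with no call in both replicates required. At least 2 cores were present in 34.1%, 28.2% and 25.1%. Per library, the share of peaks with a core was 54% and 40.6% in RCC4 and 64.7% and 61.4% in HKC8_WT, and the difference of -15.7 percentage points had p = 0.333 (two-sided exact permutation test, adjusted p = 0.417, the smallest p that 2 against 2 allows).

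Motifs of other factors were counted in the same windows, and no difference between classes was tested. The E-box CACGTG, whose letters include the HRE core ACGTG, was in 9.27% of common, 7.65% of RCC4-only and 9.97% of HKC8-only windows. Control windows held the E-box in 1.75%, 1.98% and 2.56% of cases. Motifs labelled CCAAT box, CRE, FOX core and HNF1 half-site were counted too and are not described. The AP-1 site TGACTCA or TGAGTCA was held by 15.8% of common, 14% of RCC4-only and 13.6% of HKC8-only windows, against 3.63%, 3.69% and 4.35% of control windows. Distal windows held it in 21.6%, 20.4% and 13.8% of cases. Per library, 9.59% ± 0.598 of RCC4 peaks and 15.6% ± 1.09 of HKC8_WT peaks held it (SD, n = 2 each), a difference of -6.03 points (two-sided exact permutation test, p = 0.333, the smallest possible, adjusted p = 0.417). The GC box GGGCGG, bound by Sp-family factors, was in 21.3% of common, 29.8% of RCC4-only and 9.46% of HKC8-only windows. At promoter-proximal sites it was in 44.3% of common and 62.7% of RCC4-only windows, where median GC content was 62.7% and 71.9%. Control windows held the GC box in 6.39%, 4.49% and 4.22% of cases. The ETS core CCGGAA was in 10.5%, 8.44% and 3.07% of windows, against 2.38%, 1.85% and 2.05% of controls, and was least frequent in the HKC8-only class. At distal sites the classes lay close together, with the GC box in 8.88%, 11.8% and 8.78% of windows and the ETS core in 4.25%, 3.67% and 2.93%.

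The TEAD core GGAATG went the other way. It was in 25.3% of HKC8-only windows (interval 21.1 to 29.9), 14.8% of common and 8.97% of RCC4-only windows, against 11.9%, 10.5% and 12.5% of their control windows. Among distal sites the shares were 25.3%, 16.6% and 10.6%. TEAD proteins are the DNA-binding partners of YAP in the Hippo pathway. The RUNX core TGTGGT, at 15.3%, 11.3% and 15.8%, was close to its control shares of 13.6%, 12.9% and 14.9%. A match of letters does not show that a factor was bound. HKC8-only sites of high rank are shown with the TEAD core in capitals, at ITPR1, the inositol trisphosphate receptor, and far from FTH1, the ferritin heavy chain, and ADAMTS18, a metalloprotease.
FTH1 distal, HKC8-only, chr11:61812410-61812471, plus strand: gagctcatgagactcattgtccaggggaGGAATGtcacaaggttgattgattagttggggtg
ITPR1 intron, HKC8-only, chr3:4788124-4788185, minus strand: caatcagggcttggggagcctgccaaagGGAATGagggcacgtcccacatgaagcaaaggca
ADAMTS18 distal, HKC8-only, chr16:77590173-77590234, plus strand: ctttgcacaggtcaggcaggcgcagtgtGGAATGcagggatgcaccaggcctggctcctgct

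**Figure D3:**
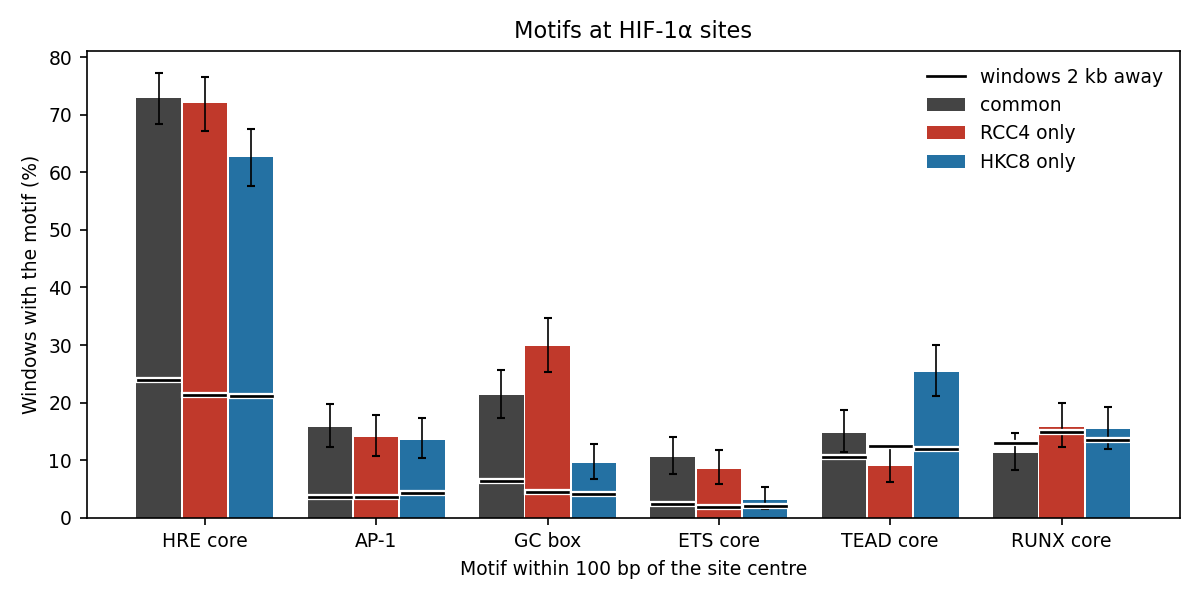
Percent of sites with each plotted motif within 100 bases of the centre, by class, with 95% Clopper-Pearson intervals as bars and the control windows 2 kb away marked beside them. The HRE core is above its controls in all 3 classes, and the TEAD core is above its controls by most in the HKC8-only class, at 25.3% against 11.9%.

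Libraries of the other HIF subunits took no part in choosing the sites. Of the RCC4-only and HKC8-only sites that an RCC4 HIF-1β library called, 97.1% and 100% were RCC4-only. In 10 HKC8 HIF-1β libraries that share ran from 18.1% to 58.2%, and the ranges did not overlap. The means were 98.6% ± 2.02 (SD, n = 2) and 37.6% ± 14.2 (n = 10), a difference of 61 percentage points (two-sided exact permutation test, p = 0.0303, the smallest possible, adjusted p = 0.0625). For HIF-2α the share was 85.5% and 91.1% in RCC4 and 0% to 38.4% in HKC8. The HIF-2α means were 88.3% ± 3.97 (n = 2) and 19.1% ± 11.3 (n = 10), a difference of 69.1 points (two-sided exact permutation test, p = 0.0303, adjusted p = 0.0625). Neither passed 0.05 after adjustment over the 10 tests. With RCC4 sites taken as the peaks of HIF-1α replicate 1 alone, without replicate 2, the differences were 25.8 points for HIF-1β and 41.7 for HIF-2α. In 2 of the 10 HKC8 HIF-1β libraries, at 58.2% and 53.4%, RCC4-only sites were the larger number. Over promoter-proximal sites alone the differences were 10.1 points for HIF-1β (p = 0.0909) and 27 for HIF-2α (p = 0.133, both exact permutation tests). Over distal sites alone they were 78.2 and 72.5 points. The promoter-proximal line-only sites were 134 RCC4-only and 15 HKC8-only, so the share starts high there. The distal ones were 245 and 376. The promoter-proximal and distal differences are therefore not on the same scale, and the difference between them was not tested.

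**Figure D4:**
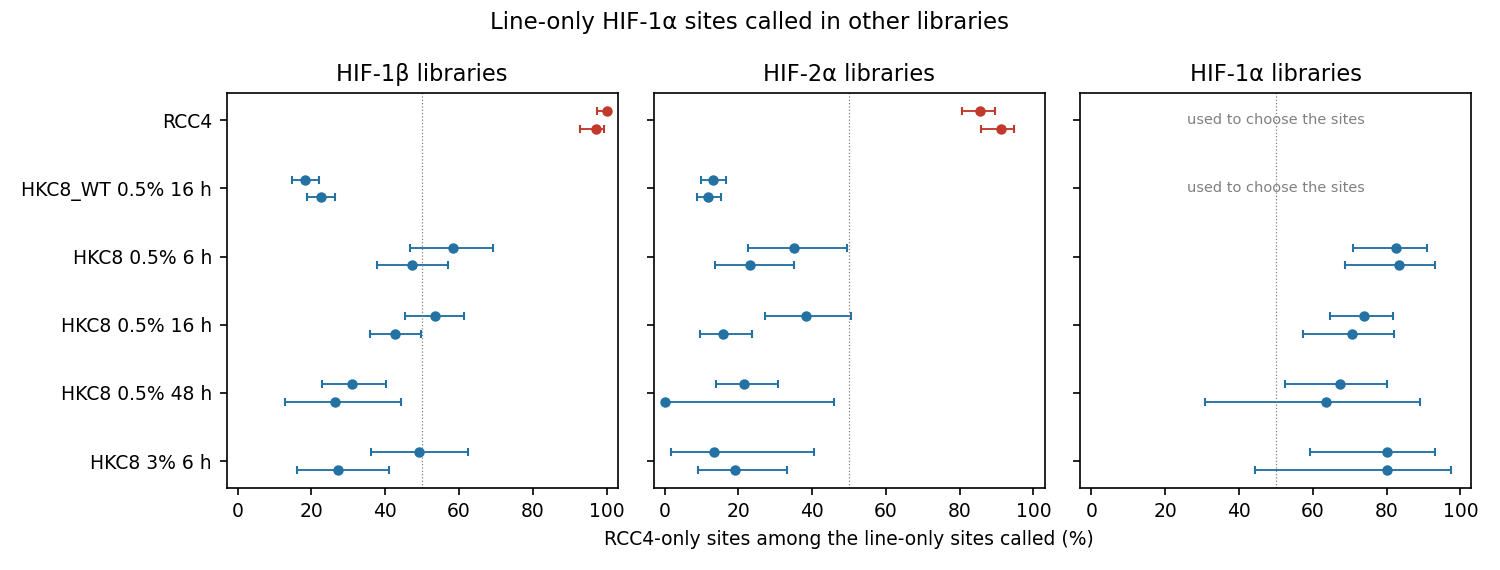
Share of RCC4-only sites among the RCC4-only and HKC8-only sites called in each HIF-1β, HIF-2α and severity and duration HIF-1α library, in percent, with 1 point per library, 95% Clopper-Pearson intervals as bars and a dotted line at 50%. HIF-1β and HIF-2α libraries lie at 85.5% or above in RCC4 and at 58.2% or below in HKC8, and the 8 HIF-1α libraries of HKC8 lie between 63.6% and 83.3%.

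Most sites of the HKC8-only class carried the partner subunit in their own line, and fewer of the RCC4-only class did. A HIF-1β peak in either HKC8_WT library was present at 100% of common and 97.7% of HKC8-only sites, and also at 34.6% of RCC4-only sites. A HIF-1β peak in either RCC4 library was present at 72.7% of common, 48.3% of RCC4-only and 1.02% of HKC8-only sites. The HKC8_WT HIF-1β lists hold 6192 and 8268 peaks and the RCC4 HIF-1β lists 908 and 1305. No HKC8-only site was in both RCC4 HIF-1β lists (0 of 391, which allows a share of up to 0.939%).

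HIF-2α shared many of the distal sites. A HIF-2α peak in either RCC4 library lay at 81.5% of common and 63.3% of RCC4-only sites, and at 10.5% of HKC8-only sites. In HKC8_WT the HIF-2α shares were 83.7%, 19.3% and 92.8%. RCC4-only sites had it at 45.5% of promoters and 73.1% of distal sites. Common sites had HKC8_WT HIF-2α at 67.9% of promoters and 92.3% of distal sites. HIF-2α thus accompanied HIF-1α more often away from promoters in both lines.

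Whether other HKC8 HIF-1α libraries kept the division was asked in 10 libraries. They called 9.34% ± 5.78 of the RCC4-only sites and 10.2% ± 16.1 of the HKC8-only sites (SD, n = 10), a difference of 0.813 points (two-sided exact sign-flip permutation test, p = 0.91, adjusted p = 1). The libraries split by experiment. All 8 severity and duration libraries called a greater share of RCC4-only than of HKC8-only sites, with HKC8-only minus RCC4-only differences of -14.2 to -0.824 points, while the 2 HKC8_HIF2aKO libraries called more HKC8-only sites, by 17.8 and 40.4 points. Peaks in the severity and duration lists had median widths of 139 to 336 bp, against 978 to 996 bp in the HKC8_HIF2aKO lists, and the part of this in the result was not tested. The balance moved with the RCC4 lists. Over the 10 libraries the difference became 9.74 points without RCC4 replicate 1 and 7.98 without replicate 2. Each had p = 0.00781 (exact sign-flip permutation test). With a replicate left out, every peak of the other RCC4 library counted as an RCC4 site. RCC4-only sites then numbered 1538 and 4546, with no call in both replicates required. At distal sites alone the 8 differences lay between -1.94 and 1.32 points.

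Common sites stood above HKC8-only sites in every one of the 10 libraries. They were called at 37.9% ± 27.9 against 10.2% ± 16.1 (SD, n = 10), a difference of 27.8 points, higher in 10 of 10 (two-sided exact sign-flip permutation test, p = 0.00195, the smallest possible, adjusted p = 0.0195). Of the 10 tests this one passed adjustment. Common sites were also wider than HKC8-only sites, with median widths of 1551 and 1173 bp. They were stronger in the HKC8_WT lists, with median percentiles of 82.4 and 77.6 against 59.5 and 54.1. The comparison did not take width or strength into account, and their part in the result was not tested. The libraries were replicate pairs, 8 of them from 1 experiment, and the test treated each library as independent. With the severity and duration pair at 0.5% for 16 h put in place of HKC8_WT, there were 977 sites, of which 183 were common, 571 RCC4-only and 22 HKC8-only. Common sites then made up 69.8% of the 262 HKC8 sites, where with HKC8_WT they made up 36.2% of 1105, and 62.8% of them were promoter-proximal. From the RCC4 side the common part fell: of 898 RCC4 sites, 183 were common with this pair and 399 (44.4%) with HKC8_WT. The shorter list of HKC8 sites thus moved the shares of the lines in opposite directions.

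**Figure D5:**
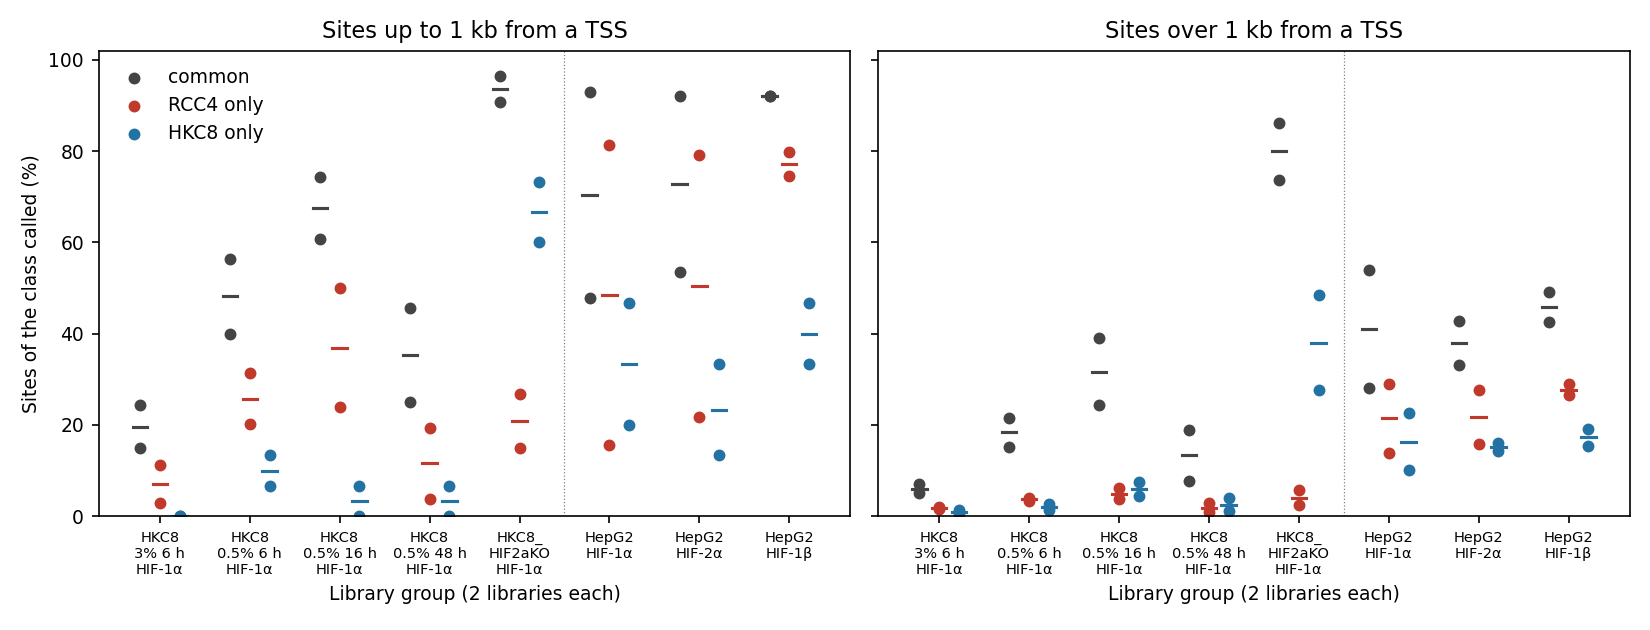
Percent of common, RCC4-only and HKC8-only sites called in the 10 other HIF-1α libraries of HKC8 and the 6 HepG2 libraries, with 1 point per library and a bar at the mean of each pair, for sites within 1 kb of a TSS (left) and farther away (right). Common sites have the highest mean in every library group in both panels, and HKC8-only sites lie above RCC4-only sites in both panels in the HKC8_HIF2aKO pair.

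HepG2, a liver carcinoma line kept at 0.5% oxygen for 16 h, gave 6 further libraries, a pair for each HIF subunit. They called 54.5% ± 13.5 of common, 36.1% ± 15.5 of RCC4-only and 16.9% ± 4.55 of HKC8-only sites (SD, n = 6). Common exceeded HKC8-only sites by 37.7 points and RCC4-only sites by 18.5 points, each in 6 of 6 libraries (two-sided exact sign-flip permutation tests, p = 0.0312 each, the smallest possible, adjusted p = 0.0625). RCC4-only sites were called more often than HKC8-only sites in 6 of 6, by 3.62 to 29.3 points, a difference that was not tested. Common sites were also wider and stronger in their lists than either line-only class, which these comparisons did not take into account. HepG2 HIF-1α replicate 1 and HIF-2α replicate 2 stood apart, calling 47.9% and 53.6% of promoter-proximal common sites where the other 4 libraries called 92.1% to 92.9%. Without these libraries the differences were 43.9 and 17 points (p = 0.125 each by the exact test, its smallest value).

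Genes of the HIF pathway were read from 13 lists of 179 genes, of which 84 had a site within 50 kb of a TSS: 47 a common site, 16 an RCC4-only site and 9 an HKC8-only site. Over all 19821 protein-coding genes the shares with such a site were 3.25%, 2.88% and 2.16%, and for sites that met 1 library of the other line 1% (called in both RCC4 libraries) and 2.27% (in both HKC8_WT libraries). The lists were chosen with earlier results of these data known, so these counts describe and do not test. Glucose uptake and glycolysis was fullest, with a site at 19 of 22 genes: common at 12, RCC4-only at 6 and HKC8-only at 2. PFKM, TPI1 and ENO2 had none. Among common sites PGK1, phosphoglycerate kinase, stood at 99.22 and 96.77 in RCC4 and 96.47 and 96.71 in HKC8. ENO1, enolase, stood at 99.9, 99.98, 93.13 and 94.3. The RCC4-only sites included the starts of HK1, hexokinase (97.93 and 82), PFKL, the liver phosphofructokinase (97.61 and 93.04), and ALDOC, an aldolase (95.77 and 95.02). PFKP, the platelet phosphofructokinase, had an HKC8-only site 19.4 kb away (69.34 and 71.89).

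The other metabolic and stress lists had a common site at more genes than an RCC4-only or HKC8-only site. Glycogen metabolism had sites at 7 of 11 genes, with common sites at 3 and an RCC4-only site at PGM1, phosphoglucomutase (98.42 and 92.19). GBE1, the branching enzyme, was common at 99.74, 99.6, 94.85 and 95.54. Mitophagy and stress genes had sites at 9 of 11, common at 5 and RCC4-only at 2, the latter with BNIP3 (96.65 and 92.48). Collagen and matrix modification had sites at 7 of 12, where P4HA2, a collagen prolyl hydroxylase, had an RCC4-only promoter site (98.62 and 87.38) and an HKC8-only site 11.7 kb away (82.98 and 84.59). Carbonic anhydrase and pH genes had sites at 5 of 9, 4 of them common, CA9 among them at 98.53, 97.43, 97.31 and 96.91. Lipid storage had sites at 6 of 11.

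Oxygen sensing and regulators were sparser. HIF subunits and oxygen sensing had sites at 4 of 11, with the promoter of EGLN1 RCC4-only (97.98 and 93.18). Demethylases had sites at 8 of 16 and secreted vascular factors at 5 of 15, 3 of them common and none line-only. Growth factors and cell cycle had sites at 5 of 14, with common sites at 3. AP-1 family genes had sites at 4 of 13, with an HKC8-only site 23.8 kb from FOS (92.6 and 93.06). Integrin and laminin genes had sites at 4 of 17: common at 1, RCC4-only at 1 and HKC8-only at 2.

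Within 1 kb of a TSS, 29 listed genes had a common site, 13 an RCC4-only site and 1, FABP3, a fatty acid binding protein, an HKC8-only site. The classes as a whole had 140, 134 and 15 sites within 1 kb of a protein-coding TSS. Of the 13 with an RCC4-only site, 8 were called by at least 4 of the 8 severity and duration libraries, 3 by fewer and 2, ALDOC and FOSL2, by none. For the 29 common genes these counts were 24, 4 and 1. Over all 134 promoter-proximal RCC4-only sites, 24 were called by at least 4 of these libraries and 74 (55.2%) by at least 1. Over all 140 promoter-proximal common sites, 65 were called by at least 4 and 114 (81.4%) by at least 1.

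HKC8-only sites lay closer to one another along the chromosomes. A second HKC8-only site was within 50 kb of 60 of 391 (15.3%), where a neighbour of the same class was that near for 29 of 399 common (7.27%) and 23 of 379 RCC4-only sites (6.07%). The densest group was 15 HKC8-only sites on chromosome 8 between 119423451 and 120119849 (GRCh37), nearest SAMD12, TNFRSF11B, the osteoprotegerin gene, and COLEC10. The most within 1 Mb was 4 for common sites and 3 for RCC4-only sites. Copy number in these lines was not analysed here.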

How the data were processed

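Peak lists of 50 immunoprecipitated libraries were used. Per the paper's methods and the submitters' processing notes, the authors trimmed adaptors (Trim Galore 0.3.3), aligned reads to GRCh37 (BWA 0.7.5a-r405), filtered them (SAMtools 0.1.19, bedtools 2.17.0), marked duplicates (Picard 1.106) and called peaks with MACS in control mode, whose version is not given in the sources used here, and with T-PIC. For the study's own site sets they then kept peaks found by both callers that passed a count filter and were shared by replicates. The deposited lists carry MACS peak names, 1 list per library, and the T-PIC and count filters were not applied here. The deposited values are MACS peak scores (lowest 50), which are not comparable in size between libraries, so percentiles within a list were used. Read depth is unknown from these lists.

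Peaks on chromosomes 1 to 22, X and Y of the 4 HIF-1α lists were merged into sites where they overlapped by at least 1 bp (29 peaks on other contigs were left out). A site was named by the nearest protein-coding TSS of GENCODE 44 on GRCh37 (89204 TSS of 19821 genes). Motifs were counted on both strands within 100 bp of the centre, with control windows 2000 bp to either side. Calculations used Python 3.11.15, numpy 2.4.6, scipy 1.17.1, pyfaidx 0.9.0.4 and matplotlib 3.10.9. The test and merging code was tested on simulated data.

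Libraries were compared by two-sided exact permutation of libraries or exact sign-flip within libraries (one-sided for the overlap of lists), with Benjamini-Hochberg adjustment over 10 tests. The p-values measure the spread between these libraries, which may be technical. Intervals are 95% Clopper-Pearson and cover counting error only. Sites named are the 8 of each class with the highest mean percentile, the 4 common sites shifted most each way, and up to 4 examples per gene list. Other sites named, among them those called in other HKC8 libraries and those shown for the TEAD core, were chosen after their values were seen. The members and lists were chosen with earlier results of these data known. Replicate numbers did not pair RCC4 with HKC8 libraries: deviations of replicate 1 had r = 0.0633 over the 399 common sites. Alternatives covered the overlap rule, score threshold, list length, TSS set, motif window, libraries left out and, chosen after the data were seen, subsets of sites or libraries. The result for 1 gene list is not reported here.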

Additional observations from a re-analysis of the deposited data

Results flagged for a closer look

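The share of HKC8-only minus RCC4-only sites called differed between the experiments that gave other HKC8 HIF-1α libraries. The mean difference was 29.1 percentage points (SD 16, n = 2) in the HKC8_HIF2aKO libraries and -6.26 points (SD 4.56, n = 8) in the severity and duration libraries, a contrast of 35.36 points (two-sided exact permutation test over 45 arrangements, p = 0.0444, the smallest this test can give). The split was seen in these libraries before it was tested, so the p restates it and is no independent support. The HKC8_HIF2aKO cultures belong to the experiment that gave the HKC8_WT lists, so experiment and genotype cannot be told apart here.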

How the results depend on the processing

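Classes moved with the way sites were made. Windows of 200 bp gave 256 common sites, promoter-proximal shares of 27.3%, 42.9% and 17.9% (common, RCC4-only, HKC8-only), HRE cores in 82.8% of common and 68.8% of HKC8-only sites and AP-1 in 20.7% of common sites. Scores of at least 100 gave 224, 210 and 211 sites. Lists of equal length gave 6.36% promoter-proximal HKC8-only sites and the upper 50% of each list 205 HKC8-only sites. Requiring HIF-1β in the same line gave 183 RCC4-only sites, 48.6% of them promoter-proximal and 8.74% with AP-1, and AP-1 in 12.1% of common sites. RCC4-only sites without a peak in any of 12 HKC8 libraries were 18% promoter-proximal, 19.2% with AP-1. TSS within 5 kb gave 45.4%, 45.9% and 17.6%, and all annotated TSS 44.1%, 46.7% and 11.8%. Whole peaks held HRE cores in 98.7%, 97.1% and 94.9% and AP-1 in 48.9%, 38.8% and 38.6%.

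With 1 library left out at a time, the sites of its line were the peaks of its other library alone. This gave 412 to 698 common, 410 to 4546 RCC4-only and 403 to 841 HKC8-only sites. Promoter-proximal shares ran from 9.82% to 39.95% (RCC4-only) and 3.43% to 12.7% (HKC8-only), HRE shares from 30.04% to 72.1% and 53.4% to 66.2%, and the RCC4-only AP-1 share from 6.89% to 14.4%. The lows of the RCC4-only class came without RCC4 replicate 1. The promoter share per library then differed by -2.99 points, and by 19.8 without RCC4 replicate 2. The HIF-1β difference ran from 25.8 to 63.3 points and the HIF-2α difference from 41.7 to 72. The difference between HKC8-only and RCC4-only sites in other HKC8 HIF-1α libraries ran from -4.18 to 9.74 and passed 0.05 without either RCC4 replicate (9.74 and 7.98, exact p = 0.00781 each). It was also negative with equal lists (-0.714), with HIF-1β required (-5.45), and, chosen after seeing the data, at promoter-proximal sites (-3.78) and in the 8 severity and duration libraries (-6.26). The causes were not tested.

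HKC8_WT libraries alone gave 78.3 points for HIF-1β and 75.9 for HIF-2α (exact p = 0.333, the smallest possible). With the replicate number as a block the HIF-2α difference was 69.1 points (exact p = 0.0556), and the block changed no other call. No paired analysis was possible for HIF-1β because the lines share fewer than 2 replicate numbers. Chosen after seeing the data, promoter-proximal sites gave 10.1 and 27 points, the HKC8_HIF2aKO libraries 45.6 points for common over HKC8-only sites, and the 4 like HepG2 libraries 43.9 and 17 points. Also chosen then, the other HKC8 pair at 0.5% for 16 h gave 183, 571 and 22 sites, promoter-proximal shares of 62.8%, 22.4% and 18.2%, HRE in 79.8% of common and 86.4% of HKC8-only sites and AP-1 in 8.74% and 22.7%.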
